A study of Homo sapiens with 2 samples.

Results

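Alternative transcript start sites are the different first exons from which a gene's RNA can begin. Here they were the start events of LM3 cells, a human hepatocellular carcinoma line, in loci that hold a single gene with 2 or more listed starts. RNA enriched for poly-A tails was sequenced in 1 library of cells labelled as an NCOA5 knockout and in 1 library of wild-type cells. Neither group had a treatment in the labels, and the labels give neither the edited site nor whether the knockout-labelled cells are 1 clone. The knockout-labelled library listed 82385 start events among 322588 events of all types, and the wild-type library listed 82338 among 322464. Genes with 2 or more starts held 49800 start events in 12123 genes of the knockout-labelled library and 49727 in 12120 genes of the wild-type library. A start was matched between libraries by its chromosome, its strand and the exon end where its first exon is spliced on, called its junction below. Matching left 48794 starts in 11685 genes, of which 22403 starts in 4607 genes had a summed start level of at least 5 FPKM (fragments per kilobase of transcript, scaled to the depth of the library) in each library. A start listed in 1 library only was set to 0 FPKM in the other, so a start described as at 0 was either listed with that value or not listed. These 4607 genes were compared through the share of each start, which is its FPKM as a percent of the sum over the gene's starts.

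Many human genes have several promoters, each with its own first exon. When the first exon holds no start codon, a change of promoter alters only the 5′ untranslated region and the regulatory inputs of the gene, and when it does hold a start codon the protein can begin elsewhere. Promoters of widely expressed genes are usually rich in G, C and CpG dinucleotides, whereas TATA boxes are more frequent at tissue-restricted genes, and liver genes such as those of the apolipoproteins are known for tissue-restricted promoters.

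The bases before 9 starts that the results turn on are shown first, because they show how different the promoters of these genes are in composition. They come from RefSeq on GRCh38.p14, run 5′ to 3′ over the 100 bases before the RefSeq start nearest to the listed start, and carry in capitals each match on either strand to TATAAA (the TATA box), CCAAT (the CCAAT box) or GGGCGG (the GC box), overlapping matches included. Over the last 100 bases of all 35116 RefSeq windows, 4.99% held TATAAA, 18.1% held CCAAT and 31.3% held GGGCGG, so single matches are common.
RBP4 upstream (chr10:93601745-93601844, minus strand): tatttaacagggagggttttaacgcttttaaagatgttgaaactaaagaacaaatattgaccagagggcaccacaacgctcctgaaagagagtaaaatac
RBP4 downstream (chr10:93601236-93601335, minus strand): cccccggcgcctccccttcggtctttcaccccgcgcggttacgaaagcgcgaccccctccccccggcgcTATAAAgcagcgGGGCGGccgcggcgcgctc
C12orf49 upstream (chr12:116738070-116738169, minus strand): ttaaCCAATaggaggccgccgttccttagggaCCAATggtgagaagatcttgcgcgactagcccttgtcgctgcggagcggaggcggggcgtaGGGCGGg
SLC7A1 upstream (chr13:29595689-29595788, minus strand): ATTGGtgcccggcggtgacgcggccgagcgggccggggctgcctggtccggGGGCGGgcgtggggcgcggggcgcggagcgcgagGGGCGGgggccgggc
TSPAN5 upstream (chr4:98658612-98658711, minus strand): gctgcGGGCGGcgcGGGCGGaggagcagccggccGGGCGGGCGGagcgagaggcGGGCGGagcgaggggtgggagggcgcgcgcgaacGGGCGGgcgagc
PPP1R12A upstream (chr12:79935461-79935560, minus strand): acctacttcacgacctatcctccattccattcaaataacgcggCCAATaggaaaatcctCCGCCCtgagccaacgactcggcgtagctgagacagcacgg
NQO1 upstream (chr16:69726561-69726660, minus strand): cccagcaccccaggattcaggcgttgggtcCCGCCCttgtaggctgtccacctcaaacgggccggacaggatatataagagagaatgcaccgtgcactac
MCTP1 downstream (chr5:95081646-95081745, minus strand): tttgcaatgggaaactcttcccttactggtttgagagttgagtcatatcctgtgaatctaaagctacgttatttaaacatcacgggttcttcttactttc
LPIN2 downstream (chr18:3011948-3012047, minus strand): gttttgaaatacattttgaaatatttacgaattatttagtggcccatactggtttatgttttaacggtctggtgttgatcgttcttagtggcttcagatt
The 250 bases before the RefSeq start were 80.0% G or C at the upstream TSPAN5 start and 84.4% at the upstream SLC7A1 start, but 36.0% at the downstream MCTP1 start and 34.8% at the downstream LPIN2 start. Both starts of RBP4, the plasma carrier of retinol made in liver, were above 0 in the wild-type library. Their windows differed in the same way, with 41.6% G or C upstream and 74.8% downstream. The 100 bases shown held no motif upstream, and TATAAA and GGGCGG downstream.

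A further set of sequences shows the beginnings of the proteins for 3 genes whose starts lead to different start codons. Each line gives the first 60 coding bases of the GENCODE 29 transcript, with start codons in capitals. For each gene, the transcript of the start with the higher share in the knockout-labelled library comes before the transcript of the start with the lower share there.
AHCTF1-207: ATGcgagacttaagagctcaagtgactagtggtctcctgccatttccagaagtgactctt
AHCTF1-201: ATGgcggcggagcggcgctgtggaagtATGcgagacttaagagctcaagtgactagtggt
SMAD7-207: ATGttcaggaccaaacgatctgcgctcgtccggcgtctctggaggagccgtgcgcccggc
SMAD7-204: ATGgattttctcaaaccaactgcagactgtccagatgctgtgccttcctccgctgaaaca
SEPT9-235: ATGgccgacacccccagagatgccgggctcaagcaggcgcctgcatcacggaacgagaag
SEPT9-228: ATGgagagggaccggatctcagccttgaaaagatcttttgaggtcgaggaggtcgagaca
The start codon of AHCTF1-207 lies in frame inside AHCTF1-201, 27 bases or 9 codons after the first ATG, and is the second ATG in capitals on the AHCTF1-201 line. The first 60 coding bases of SEPT9-235 lie in frame inside SEPT9-228, 699 bases or 233 codons downstream of its start codon. The same SEPT9 start also leads to SEPT9-241, in which they were not found. For SMAD7, the first 60 coding bases of either transcript were not found downstream of the start codon of the other. No other SMAD7 transcript was searched. Whether the beginning of SMAD7-204 lies inside another transcript of the upstream start was therefore not tested.

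NCOA5, the gene named in the knockout label, had a single listed start in both libraries (chr20:46089817-46089952, minus strand, hg38) and so is not among the compared genes. Its level there was 25.4 FPKM in the knockout-labelled library, against 20.03 FPKM in the wild-type library. Since the edited site is not given, a start event cannot check the label. The cells were checked against liver markers: 8 of 18 hepatocyte markers reached 5 FPKM in the knockout-labelled library and 6 of 18 in the wild-type library, with APOH at 42.6 and 39.4 FPKM and the albumin gene ALB at 2.92 and 1.41 FPKM, while APOA2 and GPC3 were at 0 in both. None of 11 measured leukocyte markers reached 5 FPKM in either library. Among 10 measured fibroblast markers LUM alone reached it, at 27.2 FPKM in the knockout-labelled library and 14.0 FPKM in the wild-type library, with a summed level of 30.7 and 15.5 FPKM. Of 11 endothelial markers ESAM reached it in both libraries at 23.3 and 22.3 FPKM, and KDR reached it in the knockout-labelled library alone, at 5.20 FPKM against 1.43 FPKM, with a summed level of 29.9 and 25.2 FPKM. Their part in the differences between starts was not tested.

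Most of the listed starts were at 0 FPKM in both libraries. A gene listed a median of 4 starts, and SEPT9, which encodes a septin of the cytoskeleton, listed the most, at 33. Of the 22403 starts, 6555 were above 0 FPKM in the knockout-labelled library and 6528 in the wild-type library. The union of these was 7319 starts, of which 5764 were above 0 in both libraries, 791 in the knockout-labelled library alone and 764 in the wild-type library alone. A single start held 100% of the listed start FPKM in 2985 genes (64.8%) of the knockout-labelled library and in 2983 genes (64.7%) of the wild-type library. A second start with a share of at least 20% was found in 1315 genes (28.5%) of the knockout-labelled library and in 1327 genes (28.8%) of the wild-type library. In 763 genes (16.6%) at least 2 starts held 20% or more in both. Nearly as many genes had such a second start in the knockout-labelled library as in the wild-type library.

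The position of the starts above 0 was also alike. The most upstream listed start carried a mean of 56.4% of a gene's start FPKM in the knockout-labelled library and 56.6% in the wild-type library. The main start, meaning the start with the largest share, was the most upstream listed start in 57.8% of genes in each library. First exons of coding transcripts in GENCODE 29 held 95.2% of the start FPKM in the knockout-labelled library and 95.5% in the wild-type library. The starts at 0 in both libraries were of another kind: 60.4% of these 15084 starts were first exons of other transcripts only, against 9.24% of the starts above 0. Coding here means a protein-coding transcript with an annotated start codon and no incomplete 5′ end. Other transcripts are all the rest and need not be noncoding.

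The sequence before the starts was described from the RefSeq windows. Of the 4607 genes, 3818 (82.9%) matched a RefSeq start on the same strand, 173 of them through an older symbol, and 78.1% of their 6074 starts above 0 lay within 500 bases of a RefSeq start. These starts held 88.2% of the start FPKM of the matched genes in the knockout-labelled library and 88.7% in the wild-type library. The 4148 windows at starts above 0 had a median of 66.4% G or C and an observed over expected CpG ratio of 0.845 in the 250 bases before the start, against 58.0% and 0.558 over all windows. GGGCGG stood in 72.9% of the windows at starts above 0 and in 42.6% of all windows, CCAAT in 34.9% and 32.0%, and TATAAA in 4.73% and 10.7%. All windows include those of genes not compared here. Windows at the starts of compared genes that were at 0 were not measured apart. Genes with 2 or more starts above 0 had GGGCGG in 69.9% of windows and CCAAT in 31.5%, against 75.9% and 38.4% in genes with a single start above 0. The 902 windows of starts that differed between libraries by 20 percentage points or more were close to these values, at 67.6% G or C, with GGGCGG in 69.3% and TATAAA in 5.43%.

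Whether the knockout-labelled cells used other starts than wild-type cells was then asked gene by gene. A single library stood for each genotype, which leaves no test, and a gene was taken to differ by size alone, where the share of at least 1 start differed by 20 percentage points or more. This was so in 1023 of the 4607 genes (22.2%). Since 2620 of the compared genes (56.9%) had only 1 start above 0 and could not differ, the same 1023 genes were 51.5% of the 1987 genes with 2 or more starts above 0. Among the 1074 genes with 2 or more starts above 0 in both libraries, 291 differed (27.1%). The main start was another one in the knockout-labelled library than in the wild-type library in 461 genes (10%), and 373 of these also met the 20-point rule. In bulk RNA, fewer cells using a start and less RNA from it in each cell cannot be told apart.

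Exact zeros dominated these counts. In 910 of the 1023 genes (89.0%) the start that gained or the start that lost most in share was at 0 in 1 library, and in 294 of these (32.3%) at least 1 of the pair was not listed in 1 library. Whether an exact 0 stands for absent RNA or for a failed estimate is not known, so such a start is described only as at 0. In the other 113 genes, 2.45% of those compared, both starts were above 0 in both libraries. Among genes with 2 or more starts above 0, the largest difference had a median of 20.9 percentage points with quartiles of 8.03 and 35.0, and among genes with 2 or more starts above 0 in both libraries its median was 9.47 points with quartiles of 3.78 and 21.9. Over all compared genes the median was 0. Across the 4699 starts above 0 of genes with several such starts, the shares in the libraries had a Pearson r of 0.56, and across the 3144 starts above 0 in both libraries r was 0.64. These starts share libraries and, within a gene, shares that add up to 100%.

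**Figure D1:**
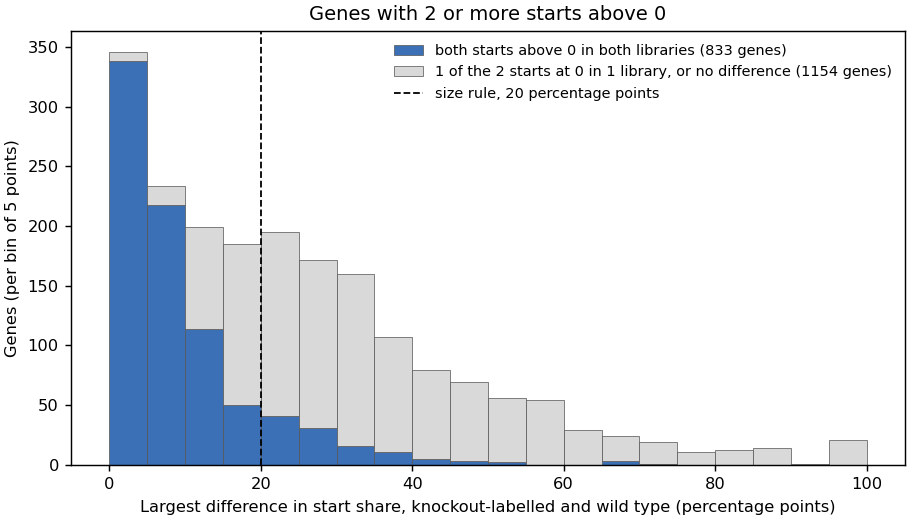
Number of genes (y axis) by the largest difference in start share between the knockout-labelled and the wild-type library, in percentage points (x axis, bins of 5 points), for the 1987 genes with 2 or more starts above 0. Blue bars are genes whose most raised and most lowered starts were above 0 in both libraries, grey bars are the other genes, and the dashed line marks 20 points; beyond it 113 genes are blue and 910 are grey.

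Of the 7319 starts above 0, 1051 (14.4%) had a share at least 20 points higher in the knockout-labelled library and 1024 (14%) a share at least 20 points lower. Because shares add up to 100% within a gene, these counts are bound to be close to each other. The start with the higher share in the knockout-labelled library lay upstream of the start with the lower share in 464 of the 1023 genes (45.4%) and downstream in 503 (49.2%), and in 56 both began at the same base and differed in the end of the first exon. Among the 113 genes above 0 throughout, 52 had the higher start upstream, 54 downstream and 7 at the same base. In 982 of the 1023 genes (96.0%) the FPKM of one start was higher and that of the other lower in the knockout-labelled library, and so it was in 107 of the 113 genes (94.7%). The choice of genes by opposite share differences largely fixes these counts. The summed start level moved little in the median gene. The median absolute log2 ratio of the sums, with 1 FPKM added to each, was 0.20 in the 1023 genes. It was 0.16 in the other genes with several starts above 0 and 0.15 in genes with a single start above 0. By the same ratio, sums differed 2-fold or more in 22 of the 1023 genes (2.15%). This was so in 5 of the other genes with several starts above 0 (0.519%) and in 38 with a single start above 0 (1.45%).

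The 5′ ends of the starts that gained and lost most in share were a median of 2229 bases apart with quartiles of 351.5 and 19764 bases. They lay within 500 bases in 309 genes (30.2%) and more than 10000 bases apart in 355 (34.7%), and their first exons overlapped in 177 (17.3%). Among the 113 genes above 0 throughout, the median distance was 1461 bases and 22 pairs overlapped. The consequence for the coding sequence was read from GENCODE 29. Coding transcripts from both starts shared a start codon in 304 of the 1023 genes (29.7%) and had different start codons in 180 (17.6%). For 539 (52.7%) at least 1 of the starts led to no start codon of a coding transcript. Among the 113 genes, 58 shared a start codon, 24 had different start codons and 31 had none for at least 1 start.

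Starts that differed between the libraries were less often annotated than the other starts. Of the 2075 starts above 0 that differed by 20 points or more, 68.4% were first exons of coding transcripts, against 90.0% of the 5244 starts that differed by less. Junctions at no annotated exon end made up 16.0% of the differing starts and 2.65% of the others. First exons of 30 bases or fewer made up 5.11% and 1.62%, and starts listed in 1 library only made up 16.2% and 1.72%. Within 500 bases of a RefSeq start lay 64.0% of the differing starts and 83.8% of the others. In 348 of the 857 differing genes with a RefSeq match both starts lay that near, in 188 only the start higher in the knockout-labelled library did, in 216 only the start lower there, and in 105 neither did. The 5244 other starts include those of the 2620 genes with a single start above 0, which could not differ, and the RefSeq comparison holds such starts too. Starts listed in 1 library only are set to 0 in the other, which partly fixes their contrast. No test of these shares was made.

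The 12 genes with the largest differences among those with both starts above 0 in both libraries are described next, since their pair of starts does not rest on a value of 0. The rule that picked them used these share differences, which are therefore a description. PPP1R12A, CDC40, SPRY1 and HDAC11 differed between first exons that lead to a common start codon and whose 5′ ends lie within 1445 bases of each other. The codon lies inside the downstream first exon of the pair in PPP1R12A, CDC40 and HDAC11, and after both in SPRY1. The upstream first exon of the HDAC11 pair also leads to another start codon, which begins inside it. PPP1R12A encodes the targeting subunit of myosin phosphatase. Its upstream start, shown above, had 11.1 FPKM in the knockout-labelled library and 2.63 FPKM in the wild-type library, and its second start, 257 bases downstream, had 8.39 and 20.1 FPKM. The upstream share was 57.1% in the knockout-labelled library against 11.6% in the wild-type library. CDC40, a splicing factor of the catalytic spliceosome, had 8.14 FPKM at its upstream start in the knockout-labelled library and 3.66 FPKM in the wild-type library, against 1.30 and 5.01 FPKM at a start 280 bases downstream. SPRY1, a feedback inhibitor of receptor tyrosine kinase signalling, had 13.5 FPKM in the knockout-labelled library and 2.99 FPKM in the wild-type library at its upstream start, which gave shares of 71.3% and 23.5%. Its start 1445 bases downstream had 5.44 FPKM in the knockout-labelled library and 7.59 FPKM in the wild-type library. HDAC11, a histone deacetylase, had 4.16 FPKM at its second listed start in the knockout-labelled library and 2.92 FPKM in the wild-type library, while a start 930 bases downstream had 0.916 and 4.54 FPKM. In these 4 genes the more upstream start of the pair had the higher share in the knockout-labelled library. MCTP1, described next, also has a common start codon, with 5′ ends 239 bases apart, and there the downstream start had the higher share. Over all 1023 differing genes the higher start lay upstream in 464 and downstream in 503.

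MCTP1, which encodes a calcium-binding membrane protein, had the largest difference of the 12, 70.9 points. With 0.5 FPKM added to each start it was 44.5 points, below C12orf49, AHCTF1, MUM1, LINC01559 and SLC7A1. Its start at chr5:95081426-95081645 (minus strand, hg38), whose promoter window is the A- and T-rich one shown above, had 5.43 FPKM in the knockout-labelled library and 2.06 FPKM in the wild-type library. The start 239 bases upstream had 1.60 FPKM in the knockout-labelled library and 28.3 FPKM in the wild-type library. Shares of the downstream start were 77.3% and 6.36%. The gene's summed start level was 7.02 FPKM in the knockout-labelled library, against 32.4 FPKM in the wild-type library, and the upstream start had the larger FPKM difference of the pair. Transcripts from both starts share a start codon.

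SLC7A1, the cationic amino acid transporter that brings arginine into cells, had the opposite direction from SPRY1 and PPP1R12A. Its upstream start, behind the 84.4% G or C window shown above, had 2.20 FPKM in the knockout-labelled library and 9.19 FPKM in the wild-type library. A start 8896 bases downstream had 7.05 FPKM in the knockout-labelled library and 3.18 FPKM in the wild-type library, with shares of 76.2% and 22.0%. A start between them was at 0 in the knockout-labelled library and had 2.08 FPKM in the wild-type library. Both of the exchanged first exons precede the same start codon.

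AHCTF1 encodes ELYS, a nucleoporin that binds chromatin and begins the rebuilding of nuclear pores after mitosis. Its upstream start (chr1:246931578-246931982, minus strand, hg38) had 16.0 FPKM in the knockout-labelled library and 2.67 FPKM in the wild-type library, and its start 558 bases downstream had 3.94 and 16.5 FPKM. The shares of the upstream start were 80.2% in the knockout-labelled library and 13.9% in the wild-type library, while the summed level was 19.9 and 19.2 FPKM. The upstream first exon leads to AHCTF1-207, whose protein begins 9 codons after that of AHCTF1-201 in the coding sequences shown above.

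C12orf49, a regulator of the SREBP pathway of cholesterol synthesis, had 17.2 FPKM at its annotated upstream start in the knockout-labelled library and 2.97 FPKM in the wild-type library. A second start 1708 bases downstream, whose junction is no annotated exon end, had 4.39 and 26.2 FPKM. The upstream share was 79.7% in the knockout-labelled library and 10.2% in the wild-type library. TSPAN5, a tetraspanin that controls the protease ADAM10, had 8.79 FPKM at the upstream start shown above in the knockout-labelled library and 4.02 FPKM in the wild-type library. A start of other transcripts only, 98337 bases downstream, had 2.64 and 9.71 FPKM. MUM1, a chromatin protein with a PWWP domain, had 10.4 FPKM at an annotated coding start in the knockout-labelled library and 1.46 FPKM in the wild-type library, and 2.14 and 8.45 FPKM at an unannotated start 70397 bases upstream. In these 3 genes the start of a coding transcript was the higher one in the knockout-labelled library. The start without a coding transcript was the higher one in the wild-type library. Over all differing genes this was not counted. Among the 857 with a RefSeq match, only the start higher in the knockout-labelled library lay near a RefSeq start in 188 genes. In 216 genes only the start lower there did.

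The other 2 of the 12 were long noncoding RNAs. LINC01559 had 7.37 FPKM at its downstream start in the knockout-labelled library and 1.96 FPKM in the wild-type library, against 1.44 and 4.64 FPKM at a start 10400 bases upstream. LINC01184 had overlapping first exons whose 5′ ends are 72 bases apart, with 5.33 FPKM at the shorter one in the knockout-labelled library and 3.59 FPKM in the wild-type library, and 2.26 and 10.3 FPKM at the longer one. Summed over its starts, LINC01559 had 8.82 FPKM in the knockout-labelled library and 6.61 FPKM in the wild-type library, so these values rest on low levels.

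**Figure D2:**
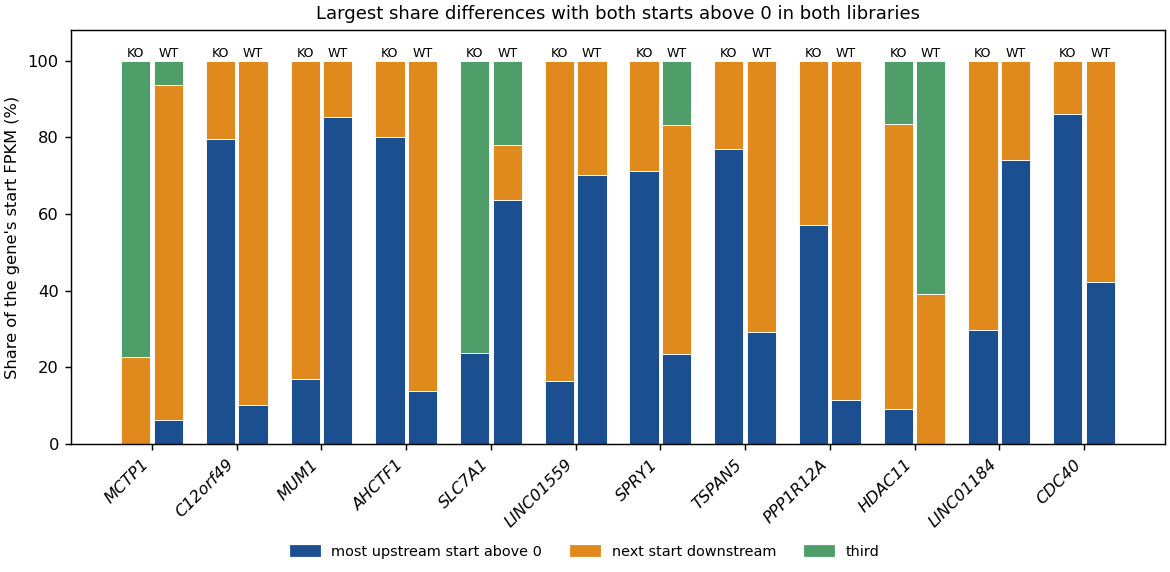
Share of each gene's start FPKM in percent (y axis) for the 12 genes with the largest differences above 0 in both libraries, with the NCOA5 knockout-labelled library (KO) left and the wild-type library (WT) right of each pair. Colours follow the order of the starts above 0 from upstream to downstream; in AHCTF1 the upstream start holds 80.2% in KO and 13.9% in WT.

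In the 6 genes described next, 1 start held 100% of the gene's start FPKM in a library and was at 0 in the other. Other genes, LPIN2 among them, also reached a difference of 100 points, so these 6 are only part of a tie. In TOR3A, UFC1 and MED17 the start that held 100% in the wild-type library was not listed in the knockout-labelled library. The summed start level of PTMS, which encodes parathymosin, was 116 FPKM in the knockout-labelled library and 122 FPKM in the wild-type library. All of the wild-type PTMS level stood at an annotated coding start, while in the knockout-labelled library 66.5 and 49.0 FPKM stood at a pair of unannotated junctions. RASSF3, a Ras association domain protein, had 35.6 FPKM in the knockout-labelled library at a first exon of 231 bases, and 39.1 FPKM in the wild-type library at a first exon of 29 bases beginning at the same base. This pair differs in a splice site and not in where transcription begins. UFC1, the conjugating enzyme for UFM1, likewise had 33.5 FPKM in the knockout-labelled library and 42.5 FPKM in the wild-type library at first exons with a common 5′ end and different junctions, beside 11.0 FPKM at an unannotated upstream start in the knockout-labelled library. TOR3A, a torsin ATPase, had 53.1 FPKM at its annotated coding start in the knockout-labelled library and 56.3 FPKM at an unannotated first exon of 22 bases in the wild-type library. MED17, a Mediator subunit, had 47.7 FPKM in the knockout-labelled library and 37.2 FPKM in the wild-type library at starts 42009 bases apart, and the wild-type first exon was listed with a length of 1 base. SEMA4B, a semaphorin, had 24.96 FPKM at its most upstream start in the knockout-labelled library, and in the wild-type library 12.5 and 18.6 FPKM at a pair of downstream coding starts. In 4 of these 6 genes, PTMS, TOR3A, UFC1 and MED17, at least 1 of the starts had no annotated junction. Over all genes, 14 exchanged a single start at 100% for another.

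Among the most abundant genes with 2 or more starts of at least 20% in both libraries, CAV1, S100A10, NQO1 and ALDOA had shares within 5 percentage points in both libraries. CAV1, the coat protein of caveolae, had 509 FPKM at its upstream start in each library and 1001 FPKM in the knockout-labelled library against 1012 FPKM in the wild-type library at a start 1508 bases downstream. The downstream share was 66.3% in the knockout-labelled library and 66.6% in the wild-type library, and the starts have different start codons. S100A10, the partner of annexin A2, had 958 FPKM at its upstream start in the knockout-labelled library and 836 FPKM in the wild-type library, with shares of 62.4% and 61.3%. NQO1, a quinone reductase of the antioxidant response whose upstream window is shown above, had 48.1% of its start FPKM at the upstream start in the knockout-labelled library and 45.6% in the wild-type library, although its 5′ ends are only 54 bases apart. ALDOA, the glycolytic aldolase, spread its RNA over 3 starts with 16.4%, 32.9% and 50.7% in the knockout-labelled library and 18.6%, 28.5% and 52.9% in the wild-type library. GAPDH, the glycolytic dehydrogenase, had 1979 FPKM at its upstream start in the knockout-labelled library and 1617 FPKM in the wild-type library, and 876 and 793 FPKM at the next start above 0. It met the 20-point rule through a first exon of 3 bases that was at 0 in the knockout-labelled library and had 771 FPKM in the wild-type library. These genes were picked for high level and shared use in both libraries, so small differences among them are partly fixed by the choice.

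The share of genes that differed was lower at higher levels of the gene. Of the genes with 2 or more starts above 0, 59.2% of 573 differed at a summed level of 5 to 10 FPKM, 53.4% of 558 at 10 to 20 FPKM, 48.3% of 542 at 20 to 50 FPKM and 39.5% of 314 at 50 FPKM or more. The level used is the smaller of both libraries. Genes with both starts above 0 throughout numbered 39, 38, 31 and 5 of those that differed in these 4 classes. At the minimum sum of 5 FPKM itself, GPSM1 with 5.57 FPKM in the knockout-labelled library and 5.005 FPKM in the wild-type library and USP30 with 5.0057 and 5.86 FPKM lay just inside, and TNFAIP3 with 4.9992 and 6.20 FPKM and HERC3 with 5.13 and 4.9944 FPKM just outside. GPSM1 differed by 32.0 points and USP30 had a single start above 0.

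Transcript ends were compared by the same rule, because they come from the same files and are listed in the same manner. Of 1203 genes with 2 or more listed ends, 130 (10.8%) differed by 20 points or more. Among the 257 genes with 2 or more ends above 0 the 130 were 50.6%, close to the 51.5% of starts, and the median largest difference was 20.4 points, against 20.9 points for starts. Of the 128 genes with 2 or more ends above 0 in both libraries 25 differed (19.5%), against 27.1% for starts. By level, 58.8%, 57.1%, 45.7% and 37.3% of such genes differed in their ends. Once restricted to genes with several sites above 0, starts and ends thus differed between the libraries about equally often, and no test of the difference was possible. In the 602 genes compared for both, starts differed in 105, ends in 46 and both in 10. The 10 genes are 9.52% of those with differing starts, beside 7.64% of all 602 genes with differing ends. They are 21.7% of those with differing ends, beside 17.4% of all 602 genes with differing starts.

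**Figure D3:**
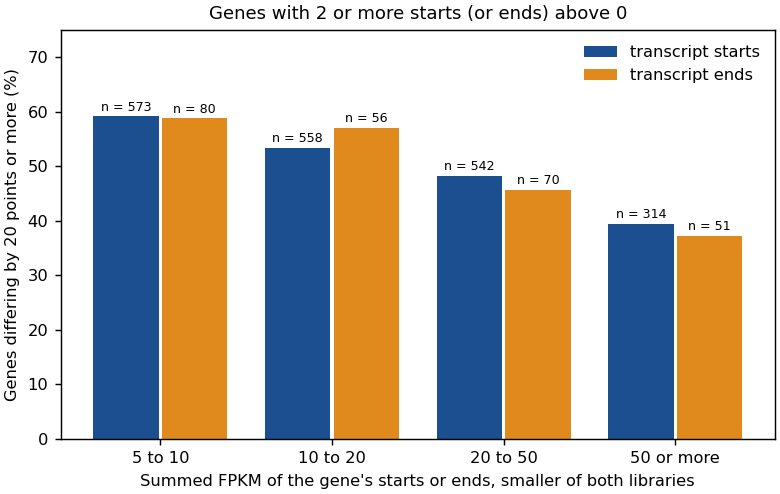
Percent of genes with a share difference of 20 points or more (y axis) among genes with 2 or more starts (blue) or ends (orange) above 0, by the summed FPKM of the gene's starts or ends in the library where it was smaller (x axis); n is the number of genes. Both sets decline, with 59.2% of genes at 5 to 10 FPKM and 39.5% at 50 FPKM or more for starts.

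Gene lists chosen for the cell line, the coregulator and the processes in the study's title are described by their counts beside the 22.2% of all compared genes and the 51.5% of genes with 2 or more starts above 0. Over all lists 57 of 223 compared members differed (25.6%), and 54.3% of the 105 members with 2 or more starts above 0. Of the 57, 9 had both starts above 0 in both libraries.

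Nuclear receptors and their coregulators, the class of proteins to which NCOA5 belongs, had 9 of 19 compared members that differed (47.4%), or 69.2% of the 13 with several starts above 0. The higher start in the knockout-labelled library lay upstream in 5 of the 9 and downstream in 4. The count was 6 of 19 (31.6%) with starts listed in both libraries, and 1 of 7 (14.3%) at a minimum sum of 20 FPKM. Under each of these settings 17.6% of all genes differed. NCOR1, a corepressor of nuclear receptors, had all of its 13.9 FPKM at its upstream start in the knockout-labelled library. In the wild-type library 4.23 FPKM stood at that start, 5.83 FPKM at an unannotated start and 6.12 FPKM at a coding start 20936 bases downstream, whose first exon holds the start codon that both coding starts lead to. THRA, a thyroid hormone receptor, had 3.86 and 2.36 FPKM at 2 downstream starts in the knockout-labelled library, against 2.92 FPKM and 0 in the wild-type library, where a more upstream start had 3.84 FPKM. NR3C1, the glucocorticoid receptor, is known for many untranslated first exons before a common start codon. Its 4 starts above 0 in either library had 0, 2.42, 2.24 and 2.55 FPKM from upstream to downstream in the knockout-labelled library and 1.74, 0, 0 and 6.45 FPKM in the wild-type library. All 4 lead to the same start codon. These levels are low, and with 0.5 FPKM added to each start the largest difference was 26.8 points in size in NR3C1, against 43.4 without it, and 35.5 in THRA, against 56.8.

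Genes known for alternative promoters had 11 of 34 compared members that differed (32.4%), or 57.9% of the 19 with several starts above 0. AKT2, a kinase of insulin signalling, had 27.5 FPKM at its second listed start in the knockout-labelled library and 11.3 FPKM in the wild-type library. A start 4563 bases downstream was at 0 in the knockout-labelled library and had 34.6 FPKM in the wild-type library, and both lead to a common start codon. A start of other transcripts only, farther downstream, had 15.9 FPKM in the knockout-labelled library and was at 0 in the wild-type library. DST, dystonin, a giant linker of the cytoskeleton with promoters for neural, epithelial and muscle forms, had 5 starts above 0 in either library. The start at chr6:56851788-56851916 (minus strand, hg38), above 0 in both libraries, had 4.62 FPKM in the knockout-labelled library and 4.80 FPKM in the wild-type library, and each of the other 4 was at 0 in 1 of them, in 1 case because it was not listed there. In the list for the insulin and IGF axis 6 of 16 members differed (37.5%), or 54.5% of the 11 with several starts above 0, and in 5 of the 6 the higher start in the knockout-labelled library lay upstream. GRB14, an inhibitor of the insulin receptor, had 8.35 FPKM at a coding start in the knockout-labelled library and 3.40 FPKM in the wild-type library, a difference of 50.2 points that was 28.2 points without starts at 0. RPTOR, the raptor subunit of mTOR complex 1, had 20.9 FPKM at its most upstream start in the knockout-labelled library and 14.9 FPKM in the wild-type library, and differed through inner starts that were each at 0 in 1 library.

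The list of epithelial and mesenchymal genes, which fits the transition in the study's title, had 6 of 22 members that differed (27.3%), or 66.7% of the 9 with several starts above 0, 2 with the higher start in the knockout-labelled library upstream and 4 downstream. SMAD7, the inhibitory SMAD of TGF-beta signalling, had 5.32 FPKM in the knockout-labelled library and 8.98 FPKM in the wild-type library at its upstream start. Its start 2206 bases downstream, which carries another start codon as shown above, was at 0 in the knockout-labelled library and had 9.41 FPKM in the wild-type library. The difference of 51.2 points was 22.7 points with 0.5 FPKM added to each start. PKP3, a plakophilin of desmosomes, had 19.4 FPKM in the knockout-labelled library and 6.04 FPKM in the wild-type library at its main start of the knockout-labelled library. A start 696 bases upstream was at 0 there and had 11.5 FPKM in the wild-type library. KRT7, a keratin of simple epithelia, had 1.78 FPKM in the knockout-labelled library and 3.07 FPKM in the wild-type library at its annotated coding start, and differed through unannotated junctions. The actin and migration list had 8 of 29 members that differed (27.6%), or 38.1% of the 21 with several starts above 0, with the higher start downstream in 6 of the 8. MYO1E, a class I myosin, had 9.77 FPKM at its coding start in the knockout-labelled library and 1.83 FPKM in the wild-type library. Beside it stood an unannotated start with 14.2 FPKM in the knockout-labelled library. A start of other transcripts only had 12.8 FPKM in the wild-type library. SEPT9 kept its main start at 68.9% in the knockout-labelled library and 67.9% in the wild-type library, with 182 and 138 FPKM. The rest of its RNA stood at the SEPT9-235 start, at 82.0 FPKM, in the knockout-labelled library, and in the wild-type library at a pair of more upstream coding starts with 28.8 and 36.4 FPKM, the second of them the SEPT9-228 start.

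Cholesterol and fatty acid genes had 5 of 28 members that differed (17.9%), although these were 5 of the 6 with several starts above 0. LPIN2, a phosphatidate phosphatase of triglyceride synthesis, had 22.2 FPKM at its downstream start in the knockout-labelled library, with the window shown above, and 18.7 FPKM at a coding first exon 1368 bases upstream in the wild-type library. Both starts lead to the same start codon, and each was at 0 in the other library. IDI1, the isopentenyl isomerase, had 19.9 FPKM in the knockout-labelled library and 24.1 FPKM in the wild-type library at its coding start, and a further 26.9 FPKM at an unannotated first exon of 31 bases in the wild-type library alone. SCAP, the escort protein of SREBP, had 23.7 FPKM in the knockout-labelled library and 16.3 FPKM in the wild-type library at its upstream start, and 9.24 FPKM at a start 358 bases downstream in the wild-type library alone. In the glycolysis and hypoxia list 5 of 19 differed (26.3%), or 62.5% of the 8 with several starts above 0. EGLN1, the oxygen-sensing prolyl hydroxylase, had 8.86 FPKM in the knockout-labelled library and 12.3 FPKM in the wild-type library at its coding start. Beside it stood 34.1 FPKM at an unannotated first exon of 23 bases in the knockout-labelled library. In the wild-type library 19.2 FPKM stood at a start of other transcripts only. CA12, a membrane carbonic anhydrase, had 40.8 FPKM in the knockout-labelled library and 25.5 FPKM in the wild-type library at its coding start, and 3 further starts each at 0 in 1 library. Hepatocyte and liver genes had 2 of 8 that differed (25%), the pioneer factors FOXA2 and FOXA3, or 50% of the 4 with several starts above 0. The count was 0 of 6 with starts listed in both libraries, and again with annotated junctions, where 17.6% and 17.7% of all genes differed. The coding start of FOXA2 had 2.54 FPKM in the knockout-labelled library and 2.70 FPKM in the wild-type library, and unannotated junctions in 1 library each made up the rest. RBP4 had 47.7 FPKM in the knockout-labelled library and 32.9 FPKM in the wild-type library at its downstream start with the TATAAA window, and its upstream start was at 0 in the knockout-labelled library and had 6.07 FPKM in the wild-type library.

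Among cell cycle genes 4 of 28 differed (14.3%), or 66.7% of the 6 with several starts above 0. Among genes of ATF4 and endoplasmic reticulum stress 4 of 19 differed (21.1%), or 57.1% of the 7 with several starts above 0. CDK6 of the cell cycle list and PSPH of the ATF4 list were above 0 at both starts in both libraries. CDK6, a kinase of the G1 phase, had 2.85 FPKM in the knockout-labelled library and 1.54 FPKM in the wild-type library at its downstream start, against 4.19 and 13.4 FPKM at a start 2692 bases upstream, with a common start codon. CDK4, also a kinase of the G1 phase, had 123 FPKM in the knockout-labelled library and 172 FPKM in the wild-type library at its main start. A start 332 bases downstream had 68.7 FPKM in the knockout-labelled library alone. PSPH, the phosphatase that completes serine synthesis, had 17.0 FPKM in the knockout-labelled library and 10.3 FPKM in the wild-type library at its upstream start, against 15.2 and 42.9 FPKM at a start 17276 bases downstream that precedes the same start codon. SHMT2, the mitochondrial serine hydroxymethyltransferase, had 39.4 FPKM in the knockout-labelled library and 62.4 FPKM in the wild-type library at its upstream start, 29.4 and 68.4 FPKM at the next, and in the knockout-labelled library alone 26.0 and 28.5 FPKM at a pair of starts that share a 5′ end. HERPUD1, a factor of protein quality control in the endoplasmic reticulum, had 18.1 FPKM in the knockout-labelled library and 17.2 FPKM in the wild-type library at its main start, and differed through a second start with 6.04 FPKM in the wild-type library alone.

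Splicing factors had the lowest share of any list with at least 8 compared members, at 1 of 18 (5.56%) and 9.09% of the 11 with several starts above 0. SRSF3, a serine- and arginine-rich splicing factor, was that gene. It had 122 FPKM in the knockout-labelled library and 71.4 FPKM in the wild-type library at its main start, and 51.3 FPKM at the end of an inner exon in the knockout-labelled library alone. HNRNPD and SRSF5 stayed below 20 points, at 17.5 and 14.5. SRSF5 had 74.9% of its start FPKM in the knockout-labelled library and 60.5% in the wild-type library at the shorter of a pair of first exons that begin at the same base. The fibroblast and leukocyte marker lists had no compared member, and the single compared endothelial marker had a single start above 0.

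**Figure D4:**
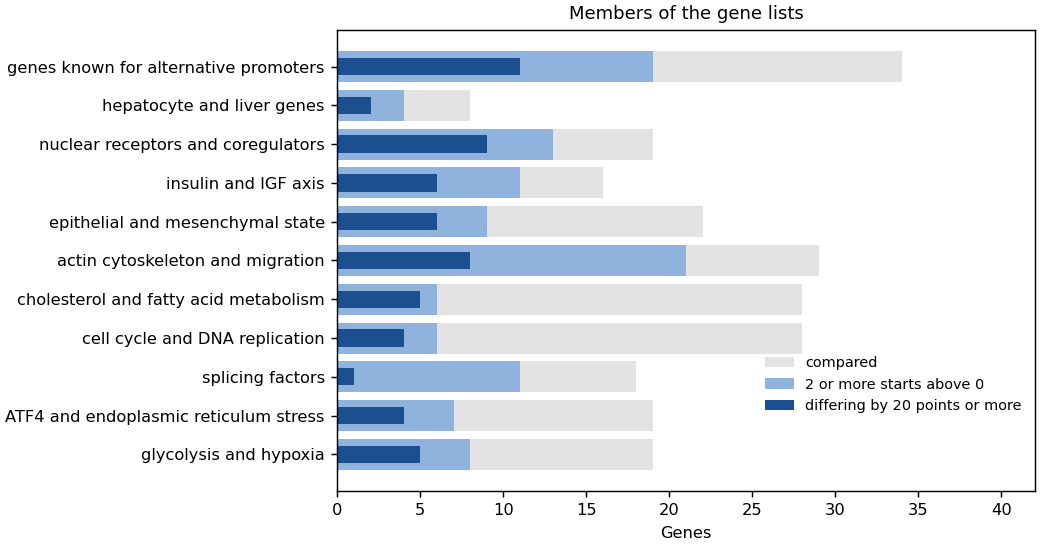
Number of genes (x axis) in each gene list with at least 8 compared members (y axis): grey bars are members compared, light blue bars those with 2 or more starts above 0 and dark blue bars those whose start shares differed by 20 points or more. Nuclear receptors and coregulators have 9 of 19 that differ and splicing factors 1 of 18.

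**Figure D5:**
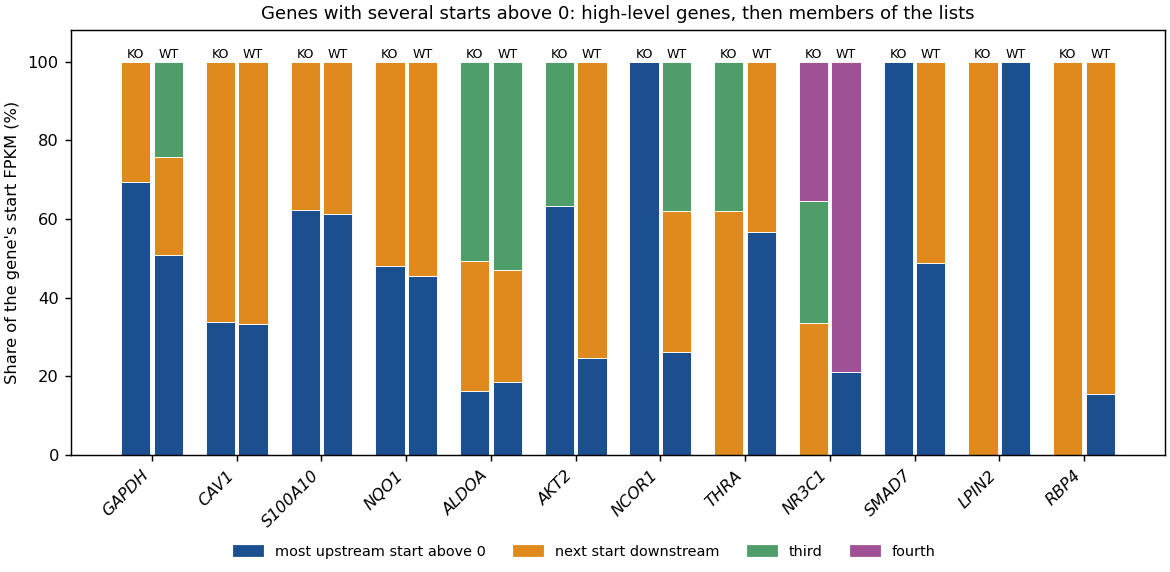
Share of each gene's start FPKM in percent (y axis) in the NCOA5 knockout-labelled library (KO, left of each pair) and the wild-type library (WT, right), for 5 high-level genes from GAPDH to ALDOA and 7 members of the lists from AKT2 to RBP4. Colours follow the starts above 0 from upstream to downstream; the upstream share of S100A10 is 62.4% in KO and 61.3% in WT, whereas the upstream start of LPIN2 is at 0 in KO and the downstream start at 0 in WT.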

How the data were processed

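The authors deposited 1 table of FPKM values for each library, in which, per the file headers, every event of a locus has its own value. The submitters' processing notes name Bowtie 0.12.2 and hg38, with no role. Per the labels' protocols, libraries had 12 cycles of PCR and paired reads of 100 bases. How events were listed, from which annotation and with what use of strand is not given in these sources. There are no counts, so depth is unknown and values have no interval.

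Shares were computed from start events in loci with 1 gene symbol. A difference is the share in the knockout-labelled library minus that in the wild-type library. With 1 library per genotype there is no replicate and no test. First exons, start codons and coding sequences came from GENCODE 29, and promoter windows from RefSeq. Computation used Python 3.11.15 (numpy 2.4.6, pandas 2.3.3, matplotlib 3.10.9), and the share procedure was tested on simulated data. Members and lists were chosen with earlier results of these data known. Named genes were NCOA5, the 12 largest differences above 0, and 6 of the genes tied at the largest difference with a start at 0. Added to these were the 6 most abundant with 2 shared starts, up to 3 per list, and 4 genes next to the minimum sum. 1 gene that this rule names is not reported here, and CDK2, FOXA3 and HNRNPD are given without levels. Alternatives were other minimum sums, thresholds and pseudocounts, subsets of starts, and joined starts.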

Additional observations from a re-analysis of the deposited data

How the results depend on the processing

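No paired analysis was possible because there is 1 library per genotype. A minimum sum of 1 FPKM gave 1601 differing genes of 6047 (26.5%), 741 with another main start and 239 with differing ends. A minimum sum of 20 FPKM gave 386 of 2190 (17.6%), 162 and 51, with 28 list members, and 1 of the 12 named genes above 0 reached that level. Leaving out starts at 0 in either library gave 146 genes of 1042 (14%), 204 with another main start, 14 with differing ends, 13 list members and a median largest difference of 6.96 points. Genes whose start and end sums agree within 5% gave 441 of 2227 (19.8%), 201 with another main start and 28 list members, and held 4 of the 12 named genes. Under these settings fewer or more genes or starts enter. A threshold of 30 points gave 656 genes and 37 list members. A pseudocount of 0.5 FPKM moved the median over all genes to 1.68 points. Chosen after seeing the data, joining starts with overlapping first exons gave 834 genes of 4607 (18.1%), and joining 5′ ends within 500 bases gave 700 (15.2%), with 378 and 308 genes of another main start and 52 and 42 list members. Nuclear receptors and coregulators had 8 and 7 differing members of 19 after joining, 6 of 19 with starts listed in both libraries or annotated junctions, 2 of 6 without starts at 0 and 1 of 7 at a minimum sum of 20 FPKM. Splicing factors had 1 of 18 after joining and 0 of 18 with starts listed in both libraries. Hepatocyte genes had 0 of 6 with starts listed in both libraries or annotated junctions. Of all genes, 800 of 4540 (17.6%) differed with starts listed in both libraries and 798 of 4500 (17.7%) with annotated junctions. No named start changed sign past the size rule under the alternatives that keep starts apart. Many named starts drop out of the stricter settings and could not change sign there. A minimum sum of 1 FPKM held 54 named genes, a minimum sum of 20 FPKM 28, and agreeing start and end sums 22. Without starts at 0, 20 named genes stayed on the same side of the size rule and 1 fell below it. IDI1 differed by 0 points once starts listed in 1 library, or at unannotated junctions, were left out. Without starts at 0, SHMT2 differed by -9.53 points and GRB14 by 28.2. With the pseudocount, the difference was 19.9 points in HERPUD1, 44.5 in MCTP1, 22.7 in SMAD7, -26.8 in NR3C1 and -35.5 in THRA.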
